A study of Mus musculus with 8 samples.

Results

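The refeeding response of HRD1-deleted mouse liver was followed by RNA-seq in 4 of the 8 liver samples of the study, 2 taken after an overnight fast and 2 taken 4 h after food was given back. HRD1, listed under its symbol Syvn1, is a ubiquitin ligase of the endoplasmic reticulum (ER) membrane. In the knockout (KO) mice, floxed HRD1 was deleted by Cre under the albumin promoter, which is active in hepatocytes. The other 4 samples are WT livers in the same feeding conditions, also 2 of each, and all livers came from C57BL/6 mice aged 12 weeks. All 4 KO samples entered, and 14328 of the 23337 genes listed passed a filter on low counts and were tested. The labels give no culture, litter or sequencing batch, and with 2 samples in a group the p-values measure only the spread among these samples.

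Feeding after a fast raises insulin, which shuts down hepatic gluconeogenesis and fatty acid oxidation and turns on glucose use and lipid synthesis. It also raises the load of secreted proteins entering the ER. Misfolded proteins there are returned to the cytosol for degradation by complexes built around HRD1, and their accumulation switches on the unfolded protein response (UPR), in which the sensors ATF6 and IRE1 raise chaperones and PERK, through ATF4 and CHOP, raises genes of amino acid supply and stress.

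Total counts were 46173643 and 48849587 in the KO fasted samples and 48446911 and 45994531 in the KO refed samples. Levels are given as counts scaled to library size (counts per 1e6, CPM) after TMM normalization, and 3 counts, taken as the smallest detectable level, equal 0.0508 to 0.0658 CPM in these 4 libraries. CPM are not divided by transcript length, so they compare samples and not genes. The 2 KO refed libraries differed from each other more than those of any other group: 22.4% of tested genes were 2-fold or more apart, against 2.96% in the KO fasted pair. The log2 ratio of KO refed sample 2 to sample 1 fell with exon length across 14176 genes (Spearman's rho -0.583, given as a description, since these genes share the same libraries). Against the KO fasted mean, the median log2 change in sample 2 went from 0.82 in the shortest of 5 length bins to -0.80 in the longest, while in sample 1 it went from 0.089 to -0.083. For this reason, a change is called held when its adjusted p was under 0.05 in the fit of all samples. It also had to be under 0.05 in each fit that left out 1 of the KO refed samples. Such a fit loses the spread between the 2 KO refed libraries, and each called more genes than the fit of all samples. Most calls could thus be expected to be held, and held says only that each refed library showed the change.

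**Figure D1:**
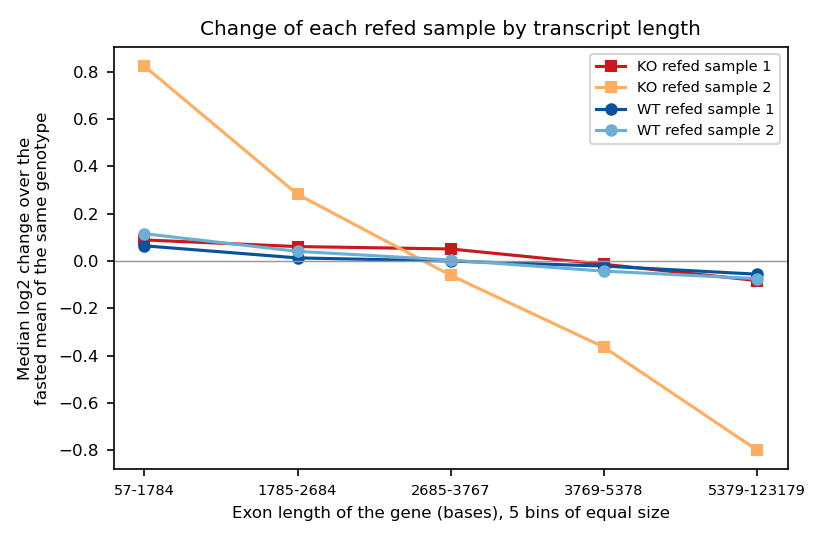
Median log2 change of each refed library over the fasted mean of its genotype (y axis), for tested genes in 5 bins of exon length in bases (x axis). KO refed sample 2 runs from 0.82 in the shortest bin to -0.80 in the longest, while the other 3 libraries stay between 0.12 and -0.083.

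Syvn1, on chromosome 19 from 6046576 to 6053712 (GRCm38), was read first because it is the deleted gene. Its level was 32.6 and 31.5 CPM in KO fasted samples 1 and 2 and 453 and 132 CPM in KO refed samples 1 and 2. In WT it was 111 and 99.8 CPM fasted and 637 and 305 CPM refed. Both KO fasted samples lay below both WT fasted samples, but the library labelled KO refed 1 lay within the range of the WT refed samples. The rise in KO was 3.19 on the log2 scale (SE 0.59, n = 2 against 2, adjusted p = 0.0213, edgeR's quasi-likelihood test). Counts per gene include exons outside a deleted part, the deleted exons are not given in the sources used here, and what share of the Syvn1 counts came from them was not tested. The label was read against 2 other genes, which were chosen after their values were seen because they differed between the genotypes and so are no independent check. Cyp2b13 was between 6.87 and 20.2 CPM in the 4 KO libraries and at most 0.0263 CPM in WT, and Mup21 was between 1.47 and 7.26 CPM in KO and between 127 and 254 CPM in WT.

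Refeeding raised 778 genes in KO liver, 5.43% of those tested, and lowered 723, or 5.05%, at an adjusted p under 0.05. Of these 1501 genes, 480 rose and 510 fell by 2-fold or more, and 1424 (94.9%) were held, or 9.94% of tested genes, 736 higher (5.14%) and 688 lower (4.80%). In WT liver the same test called 172 genes higher (1.20%) and 202 lower (1.41%), together 2.61% of genes, against 10.5% in KO, and 280 genes moved the same way past the threshold in both genotypes, 18.7% of the KO calls and 74.9% of the WT calls. The KO genes that rose had a median exon length of 2267 bases and those that fell 4171, against 3200 for all tested genes. The counts rest on the spread shared by all 8 samples, and those within the gene lists below come from the same fit. With the 4 KO samples alone no gene passed, with 1395 higher and 1321 lower at an unadjusted p under 0.05. With the 4 WT samples alone, 909 genes passed as higher and 973 as lower. DESeq2 on all 8 samples called 496 higher and 590 lower in WT and 1534 higher and 1387 lower in KO. Which genotype had more calls thus depended on the samples in the fit, and the KO counts also moved with single samples. Without KO fasted sample 1 the counts were 3 and 12, without sample 2 they were 9 and 26, and with each WT sample left out they were between 219 and 324 higher and between 230 and 360 lower.

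Whichever of the 8 samples was left out, 12 genes passed. Of these, 3 rose, namely Ddit3, Gadd45a and Manf, and 9 fell, namely Pck1, Ppara, B930025P03Rik, Calcoco1, D7Ertd143e, Hdc, Slc24a6, Slc25a47 and Sorbs3. The largest adjusted p among them in any of these fits was 0.0438.

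Of the UPR genes, 13 of 26 ER chaperones and folding enzymes and 5 of 14 sensors and transducers rose in KO liver on refeeding. Over all tested genes, 5.43% rose. The genes of the sensors named above, Atf6, Ern1 (IRE1) and Eif2ak3 (PERK), were not among those that rose. Hspa5 (BiP), the major ER chaperone, was at 1311 and 1022 CPM fasted and at 8635 and 6171 CPM refed, a rise of 2.67 (SE 0.33, adjusted p = 0.00752). Both refed samples stood far above both fasted ones, and in WT the same gene went from 983 and 1022 to 4892 and 2759 CPM. Many promoters of this class hold an ER stress response element (ERSE), the letters CCAAT and CCACG with 9 free bases between, which ATF6 and NF-Y are known to bind. It was found, on either strand, in 8 of the 22 ER chaperone and folding genes that had a RefSeq promoter (36.4%). The share was 0.168% of the 11302 tested genes with a promoter and 0.137% of all 27025 genes with one. Each promoter ran from 250 bases before to 50 after the start (GRCm38.p6). Of the 11 chaperone genes that rose and had a promoter 5 held it, as did 3 of the 11 other members. The lines below show it in capitals, 5′ to 3′ on the strand named, for 5 chaperone genes that rose and for Syvn1.
Hspa5, chr2:34772020-34772049, plus strand: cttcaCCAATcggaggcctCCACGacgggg
Calr, chr8:84847069-84847098, plus strand: tatgggCCAATgagggtcgaCCACGcgttg
Creld2, chr15:88819515-88819544, minus strand: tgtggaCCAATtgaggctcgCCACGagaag
Hsp90b1, chr10:86705632-86705661, minus strand: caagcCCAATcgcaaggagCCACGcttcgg
Pdia6, chr12:17266486-17266515, plus strand: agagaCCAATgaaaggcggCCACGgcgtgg
Syvn1, chr19:6046527-6046556, plus strand: cgcaaCCAATcggcggtagCCACGggaaca

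Of 26 ER chaperones and folding enzymes tested, 13 rose, all held, and none fell, against 5.43% and 5.05% of all tested genes. The median log2 change was 1.19 against 0.0225 over all tested genes. The median was 1.54 in KO refed sample 1 alone and 1.15 in sample 2 alone. In WT, 8 members rose and the median was 0.71. Creld2, a secreted partner of folding enzymes, gave the largest change, from 41.7 and 32.7 CPM fasted to 888 and 739 CPM refed (4.45, SE 0.45, adjusted p = 0.00418). Manf, an ER-stress-induced secreted factor, went from 76.6 and 60.5 to 777 and 951 CPM (3.66, SE 0.27, adjusted p = 0.00346). Neither gene's refed samples overlapped the fasted ones, which 29.2% of all tested genes also showed in that direction. For both genes the KO refed samples lay above all WT refed samples. Those were at 406 and 160.2 CPM for Creld2 and at 487 and 322 CPM for Manf. The difference between the 2 genotypes' responses did not pass in edgeR for Creld2 (1.88) or Manf (1.17), each with an adjusted p of 0.561. Calr, the calcium-binding lectin chaperone calreticulin on chromosome 8 from 84841850 to 84846934, was at 553 and 489 CPM fasted and 2662 and 2599 CPM refed (2.34, SE 0.18, adjusted p = 0.00346). Its KO fasted samples lay below the WT fasted samples at 899 and 922 CPM, and its KO refed samples lay above the WT refed ones at 2076 and 1783 CPM.

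The other chaperones that rose were Sdf2l1 (3.34), Hyou1 (2.81), Hsp90b1 (2.42), Pdia4 (2.17), Dnajb11 (1.98), Pdia3 (1.64), Pdia6 (1.58), Ppib (0.85) and Erp44 (0.69), in log2 units, of which Ppib did not pass after a correction for transcript length (0.32, adjusted p = 0.389, with a range of 8.16e-05 to 0.389 over the alternative fits). The refed samples lay close for some and apart for others. Sdf2l1, a BiP-associated factor, reached 318 and 302 CPM from 36.5 and 24.6. Hyou1, a nucleotide exchange factor for BiP, reached 1249 and 436 CPM from 127 and 113, and Pdia4, a disulfide isomerase, reached 1793 and 734 CPM from 316 and 246. Members that did not pass included Canx, the membrane partner of Calr, at 0.66 (adjusted p = 0.0784), and the BiP cochaperone Dnajb9 at 1.48 (adjusted p = 0.0967), which was at 53.2 and 44.9 CPM fasted and at 209.5 and 64.0 CPM refed.

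Proteins enter the ER through the translocon and are glycosylated there by the oligosaccharyltransferase. Of 29 genes of these steps, 11 rose, all held, and none fell, against 5.43% and 5.05% of all tested genes. The median was 0.45 in WT, where 3 rose, and 0.53 in KO. Examples that rose are Ostc (1.38), Rpn1 (0.94), Ddost (0.94) and Magt1 (0.92) of the transferase, Spcs2 (1.22) of the signal peptidase and Sec61b (1.22) of the channel. Spcs2 was at 58.7 and 56.4 CPM fasted and at 134 CPM in each refed sample, whereas Sec61b, a short transcript, was at 19.7 and 20.1 CPM fasted and at 31.7 and 61.3 CPM refed. With a correction for transcript length the median of the group was 0.37 and 10 members rose and 1 fell, with Sec61b no longer past the threshold.

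Genes of ER-associated degradation itself moved less uniformly. Of 24 members, 4 rose and 1 fell, all held, where 5.43% of all tested genes rose and 5.05% fell. The median was 0.43 in KO and 0.16 in WT, where none passed, but the KO median was 0.18 after the length correction. Besides Syvn1, the rises were Derl2 (0.99), a derlin of the retrotranslocation complex, Ubxn4 (0.90), which recruits the p97 ATPase, and Edem2 (0.67), a mannosidase of glycoprotein disposal, and the fall was Erlec1 at -0.56, a lectin. Sel1l, the adaptor that stabilizes HRD1, was at 233 and 228 CPM fasted and at 749 and 269.7 CPM refed, 1.14 with an adjusted p of 0.121, the refed samples being far apart. The 14 UPR sensors and transducers had a median of -0.13, which was 0.45 in refed sample 1 alone, -0.25 in sample 2 alone and 0.16 after the length correction, with which 1 member fell. In the fit without that correction, 5 rose and none fell: Ddit3, Atf6b (1.11), Atf4 (0.90, not past the threshold after the length correction), Xbp1 (0.71), the transcription factor spliced by IRE1, and Eif2s1 (0.67), the PERK substrate. Of the sensor genes, Eif2ak3, which encodes PERK, was at -0.39 (adjusted p = 0.418). Atf6 and Ern1, which encodes IRE1, did not pass either, at 0.877 and 0.958 times their fasted level.

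Among PERK branch genes, Ddit3 (CHOP), on chromosome 10 from 127290774 to 127296288, a transcription factor of prolonged ER stress, was at 15.5 and 14.8 CPM fasted and at 251 and 241 CPM refed. The rise was 4.02 on the log2 scale (SE 0.22, adjusted p = 0.00154), or 16.2-fold, with the smallest p of all genes tested in KO. In WT it was at 6.66 and 5.62 CPM fasted and at 16.1 and 11.3 CPM refed, a rise of 1.16 (adjusted p = 0.0379). The WT refed samples thus stood about where the KO fasted samples did.

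Of 40 PERK-ATF4-CHOP targets tested, 14 rose and 2 fell, all held, where 5.43% of all tested genes rose and 5.05% fell. The median was 0.77 in KO, 0.92 from refed sample 1 alone and 0.74 from sample 2 alone. In WT the median was -0.0049, with 3 higher and 2 lower. ATF4 and CHOP are known to act through the C/EBP-ATF response element (CARE), searched for as TGATGNAA on either strand. It was present in 11 of 34 targets with a promoter (32.4%), in 2.98% of tested genes with one and in 4.51% of all genes with one. Of the 12 targets that rose 4 held it, against 7 of the 22 others. The fixed letters are in capitals below for 2 targets that rose and 1 that fell.
Trib3, chr2:152344028-152344057, plus strand: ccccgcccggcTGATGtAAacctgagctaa
Nupr1, chr7:126625562-126625591, plus strand: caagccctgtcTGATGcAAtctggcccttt
Fgf21, chr7:45615611-45615640, plus strand: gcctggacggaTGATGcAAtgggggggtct

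Nupr1, a stress-induced chromatin protein, was at 12.5 CPM in each fasted sample and at 99.4 and 62.7 CPM refed (2.70, SE 0.52, adjusted p = 0.0241). All 4 WT samples lay between 0.798 and 2.63 CPM, below every KO sample. Trib3, a pseudokinase that feeds back on ATF4, was at 45.5 and 42.4 CPM fasted and at 241 and 76.7 CPM refed (1.85, SE 0.46, adjusted p = 0.0478), and did not pass after the length correction (adjusted p = 0.0641, with a range of 0.000335 to 0.26 over the alternative fits). Its WT samples went the other way, from 18.9 and 22.1 CPM to 6.52 and 7.85 CPM, a change of -1.51 with an adjusted p of 0.163.

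Psat1 and Psph, of serine synthesis, rose by 1.77 and 1.73. Psat1 was at 13.1 and 14.5 CPM fasted and at 65.0 and 29.0 CPM refed, and at 0.893 to 1.04 CPM in the 4 WT samples. Aldh18a1 (2.15), the first enzyme of proline synthesis, Mthfd2 (1.53) of mitochondrial folate metabolism and Slc3a2 (1.55), the heavy chain of amino acid exchangers, also rose. Slc3a2 was at 47.1 and 54.7 CPM fasted and at 176 and 122 CPM refed, while WT refed samples were at 47.7 and 45.2 CPM.

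The tRNA synthetase genes Wars (1.66), Aars (1.44), Cars (1.09), Gars (0.77) and Sars (0.76) rose together, and Aars went from 167 and 174 CPM to 470.3 and 456 CPM. The 2 members that fell were Slc38a2 (-1.39), a neutral amino acid transporter, and Fgf21, a secreted fasting hormone. Fgf21 was at 53.2 and 59.4 CPM fasted and at 25.6 and 21.9 CPM refed (-1.24, SE 0.20, adjusted p = 0.0146), against 14.1 and 14.6 CPM and then 1.53 and 2.21 CPM in WT. Thus the KO refed level lay above the WT fasted level. Atf3 and Asns, further ATF4 targets, did not pass (2.31, adjusted p = 0.0778, and 1.23, adjusted p = 0.086).

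Gadd45a, a growth arrest gene that ATF4 is known to induce, was at 4.01 and 3.29 CPM fasted and at 39.0 and 29.9 CPM refed (3.24, SE 0.22, adjusted p = 0.0031). Of the 17 p53 targets and Gadd45 genes it was the only one to rise and Gadd45b, which fell by 2.15, the only one to fall, with a median of -0.26, so the group was called about as often as all tested genes (5.43% higher and 5.05% lower). Of 32 genes of ribosome biogenesis, 14 rose, all held, and none fell, with a median of 0.63 in KO and 0.24 in WT, where 1 rose. Rrp9 (1.92) and Nop56 (1.60), both of small nucleolar ribonucleoproteins, and the assembly factor Ppan (1.88) led. Rrp9 was at 6.67 and 6.34 CPM fasted and at 22.6 and 26.6 CPM refed.

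**Figure D2:**
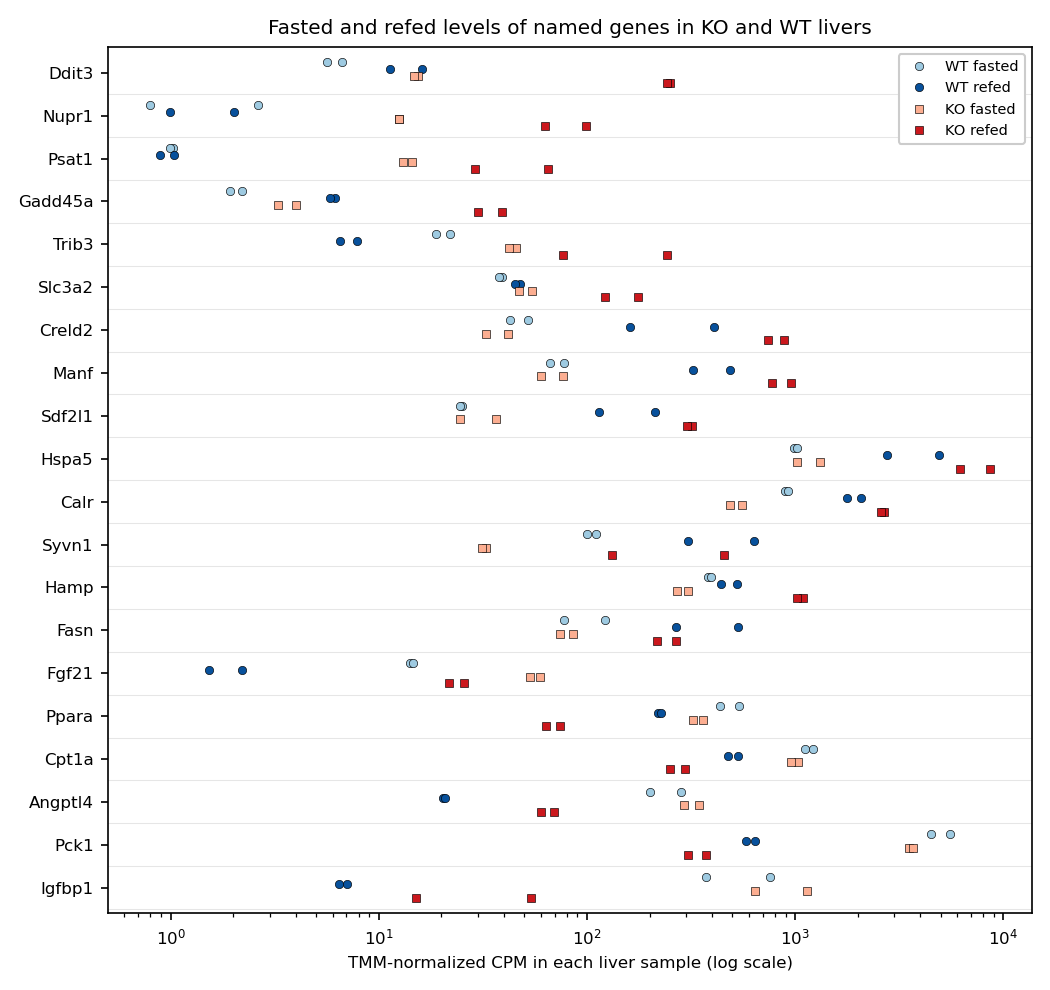
Normalized CPM of 20 genes in each of the 8 liver samples on a log scale (x axis), with the 2 samples of a group as 2 symbols in 1 color. Ddit3 sits at 251 and 241 CPM in KO refed samples and at 16.1 CPM or less in all other samples, while Pck1 and Igfbp1 are lower in the refed samples of both genotypes.

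The metabolic side of the response was large in KO liver too. Of 18 genes of gluconeogenesis and insulin repression, 7 fell, all held, and none rose, where 5.05% of all tested genes fell and 5.43% rose. The median was -1.01 in KO and -1.0036 in WT, where 6 fell. Pck1, the PEP carboxykinase on chromosome 2 from 173153048 to 173159273, was at 3530 and 3673 CPM fasted and at 306 and 374 CPM refed (-3.40, SE 0.21, adjusted p = 0.00183). The WT samples fell from 5524 and 4512 CPM to 578 and 640.3 CPM, a change of -3.04 (adjusted p = 0.00488). The difference between the 2 genotypes' responses was -0.36 (SE 0.27, adjusted p = 0.658), and its adjusted p lay between 0.316 and 0.908 in the 16 alternative fits.

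G6pc, glucose-6-phosphatase, fell by 2.95, Txnip, an insulin-repressed inhibitor of thioredoxin, by 3.23, and Pdk4, the kinase that shuts pyruvate dehydrogenase, by 2.89. Ppargc1a, the coactivator of gluconeogenic genes, was at 57.0 and 18.9 CPM fasted and at 4.84 and 6.62 CPM refed (-2.73, adjusted p = 0.0236). Without KO fasted sample 1 it did not pass (-1.73, adjusted p = 0.114, with a range of 1.77e-06 to 0.134 over the alternative fits). Igfbp1, the insulin-repressed IGF-binding protein, was at 1138 and 645 CPM fasted and at 53.7 and 15.1 CPM refed (-4.69, SE 0.69, adjusted p = 0.0117). Irs2, an insulin receptor substrate, was at 24.6 and 26.8 CPM fasted and at 4.44 and 0.263 CPM refed and did not pass (-3.43, adjusted p = 0.0553), the refed samples being far apart. Of 19 genes of glucose use and glycogen, 4 rose and 2 fell, all held, against 5.43% and 5.05% of all tested genes. Pfkfb3 (1.20), which makes the allosteric activator of glycolysis, and Pklr (0.89), the liver pyruvate kinase, were among those that rose. Ppp1r3g, a glycogen-targeting phosphatase subunit, was at 18.5 and 10.7 CPM fasted and at 0.169 and 0.219 CPM refed.

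Fatty acid oxidation and ketogenesis fell in 11 of 29 genes, all held, and rose in none, against 5.05% and 5.43% of all tested genes. The median was -0.64 in KO and -0.62 in WT, where 7 fell. Ppara, the nuclear receptor that drives this program, on chromosome 15 from 85734983 to 85802819, was at 325 and 361 CPM fasted and at 74.6 and 63.7 CPM refed (-2.31, SE 0.18, adjusted p = 0.00346). In WT it went from 537 and 436 CPM to 219 and 227 CPM (-1.12). Both KO refed samples lay below both WT refed samples, and both KO fasted samples already lay below both WT fasted samples. Cpt1a, which admits fatty acids to mitochondria, was at 1033 and 958 CPM fasted and at 296 and 250.3 CPM refed (-1.86, SE 0.17, adjusted p = 0.00399). Angptl4, a lipase inhibitor and PPAR target, was at 347 and 292 CPM fasted and at 60.4 and 69.2 CPM refed, and the WT refed samples were lower at 20.3 and 20.8 CPM. The falls of Cyp4a10, Cyp4a14 and Cyp4a31 (-0.86, -0.86 and -1.496) concern close paralogs among which reads can be split.

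Fatty acid synthesis did not move as 1 group: of 20 genes, 6 rose and 3 fell, with a median of 0.063, and without KO refed sample 2 the rise of Thrsp, a lipogenic regulator at 13.0 and 55.3 CPM in the refed samples, was lost. Fasn (1.59), Acly (1.504), Acaca (0.80) and Elovl6 (1.65), which build and lengthen the chain, and Dgat2 (0.64), of triglyceride synthesis, rose. Fasn was at 74.5 and 86.1 CPM fasted and at 216 and 267 CPM refed. Acacb (-1.71, lost after the length correction), whose malonyl-CoA restrains oxidation, and the polyunsaturated fatty acid enzymes Elovl5 (-1.38) and Fads2 (-1.06) fell. Of 25 genes of cholesterol synthesis and uptake, 6 rose, 5 of them held, and none fell. The counts of both groups stand beside 5.43% higher and 5.05% lower over all tested genes. The cholesterol group had a median of 1.49 in KO and 1.73 in WT. Mvd, a mevalonate pathway decarboxylase, was at 6.57 and 8.48 CPM fasted and at 67.0 and 153 CPM refed (3.87, SE 0.56, adjusted p = 0.0112). The refed samples of both genotypes were spread for this pathway, with Mvd at 37.7 and 92.9 CPM in the WT refed samples.

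**Figure D3:**
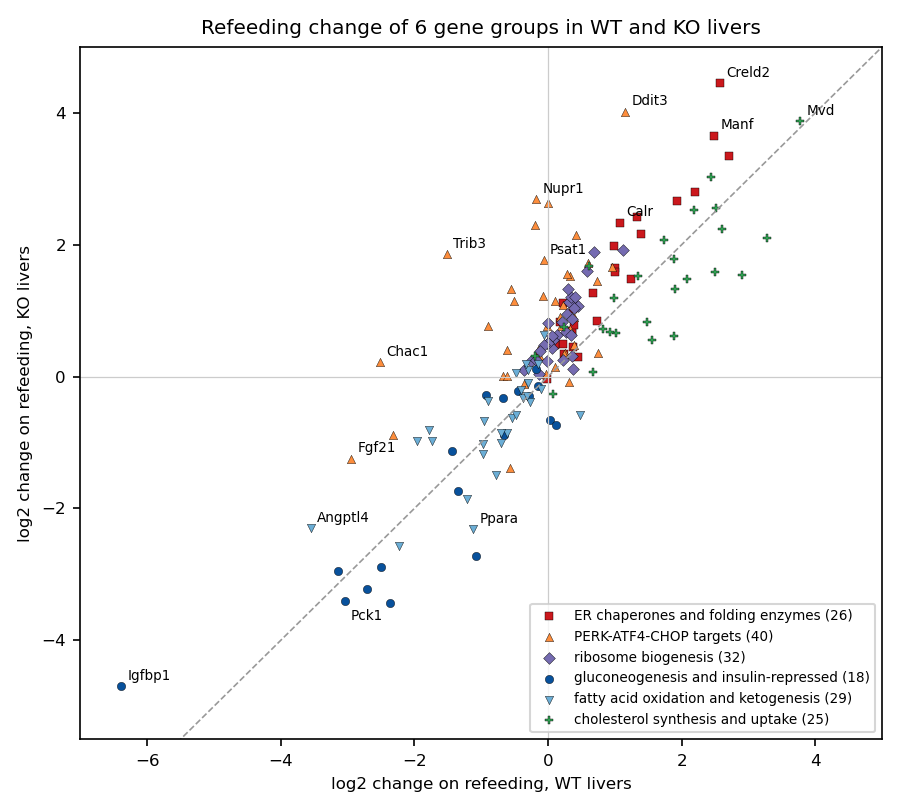
Fitted log2 change on refeeding in WT liver (x axis) and in KO liver (y axis) for the tested genes of 6 groups, 1 symbol for each gene, with the dashed line marking equal changes. Gluconeogenic genes spread along the line, while many PERK-ATF4-CHOP targets stand above it, the group having a median of 0.77 in KO and -0.0049 in WT.

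Of 21 bile acid genes, 1 rose and 4 fell, against 5.43% and 5.05% of all tested genes. Cyp7a1, the rate-limiting enzyme of bile acid synthesis, was at 111 and 85.3 CPM fasted and at 303 and 252 CPM refed (1.502, SE 0.22, adjusted p = 0.0117). Cyp8b1, the sterol 12-hydroxylase, fell by 1.96, from 887 and 746 CPM to 129 and 291 CPM, and Cyp39a1 (-1.13) and the transporters Slco1a4 (-1.32) and Abcc3 (-0.81) fell too, Abcc3 being lost after the length correction. The group's median was -0.16. Of 25 urea cycle and amino acid genes 2 rose, Glud1 (0.80) and Nags (0.72), and 2 fell, Tdo2 (-1.21) and Gldc (-0.64). These counts are near the share of all tested genes in each direction. The median was -0.036, but -0.31 in KO refed sample 1 alone, 0.22 in sample 2 alone and -0.31 after the length correction. With that correction 2 members rose and 6 fell, where 1121 and 1126 of 14176 tested genes did. Among 20 acute phase genes and metallothioneins only Mt1 (-2.06) and Mt2 (-1.92), which are near-identical neighbours, fell and none rose. Over all tested genes, 5.05% fell and 5.43% rose.

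Of 26 secreted hormones and IGF axis genes, 3 rose and 4 fell, all held, beside 5.43% and 5.05% of all tested genes. Hamp, which encodes hepcidin, the hormone of iron balance, was at 272 and 304 CPM fasted and at 1096 and 1026 CPM refed (1.88, SE 0.17, adjusted p = 0.0039), against 383 and 393 CPM and then 524 and 441 CPM in WT. With the correction for transcript length Hamp, a short transcript, did not pass (1.30, adjusted p = 0.0635, with a range of 4.56e-23 to 0.0821 over the alternative fits). Angptl6, an angiopoietin-like secreted protein, was at 9.31 and 10.1 CPM fasted and at 30.6 and 30.2 CPM refed (1.64, SE 0.17, adjusted p = 0.00409), and at 4.19 to 5.17 CPM in the 4 WT samples. Gm6484, the current Angptl8, an insulin-induced lipase regulator, was at 10.5 and 8.43 CPM fasted and at 95.4 and 409.5 CPM refed (4.74, SE 0.67, adjusted p = 0.0106), the refed samples differing widely. Inhbe, the activin E subunit, fell by 0.84, a call lost after the length correction, together with Fgf21, Igfbp1 and Angptl4.

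Clock genes moved in both genotypes, and since the hour of collection is not given in the sources used here, feeding and time of day cannot be told apart. Of 19, 3 rose and 2 fell, where 5.43% of all tested genes rose and 5.05% fell. The repressor Nr1d1 was at 21.4 and 21.6 CPM fasted and at 44.5 and 46.7 CPM refed (1.08, SE 0.19, adjusted p = 0.0177), against 17.4 and 20.2 CPM and then 83.4 and 114 CPM in WT. Per2 (1.36) and Dbp (2.75) also rose, the latter lost without KO refed sample 2, and Per1 (-2.32) was among those that fell. Of 16 immediate early genes, Ier5 (1.76) and Jund (1.16) rose and none fell, beside 5.43% higher and 5.05% lower over all tested genes.

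Among the 8 largest held rises over all genes, Gm6484, Creld2, Ddit3 and Mvd are described above. Hapln1, a matrix link protein, had 8 and 3 counts in the fasted samples and 169 and 209 in the refed ones, a ratio of pooled levels of 34.9 (95% counting interval 19.3 to 70.4). Cyp26a1, which degrades retinoic acid, was at 3.46 and 2.92 CPM fasted and at 50.8 and 44.4 CPM refed (3.90, SE 0.40, adjusted p = 0.00418). Bhlha15 (MIST1), a transcription factor of secretory cells, was at 0.450 and 0.363 CPM fasted and at 13.1 and 3.13 CPM refed (4.32, SE 0.81, adjusted p = 0.0222), and Dnahc1, an axonemal dynein, at 0.293 and 0.127 and then 4.99 and 1.62 CPM (3.97, SE 0.71, adjusted p = 0.0187). In WT, 6 of these 8 genes passed the test and rose, where 1.20% of all tested genes did, and Bhlha15 and Dnahc1 did not pass (adjusted p = 0.0658 and 0.706).

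The 8 largest held falls included Igfbp1 and Ppp1r3g. Adra2a, an adrenergic receptor, was at 11.4 and 3.58 CPM fasted and had 4 and 6 counts refed (-6.24, SE 0.87, adjusted p = 0.00999). Unc79, a subunit of a sodium leak channel complex, had 116 and 135 counts fasted and 6 and 3 refed, a ratio of fasted to refed levels of 27.5 (95% counting interval 14.25 to 60.8). Rgs16, a regulator of G protein signalling, was at 10.6 and 7.48 CPM fasted and at 0.508 and 0.351 CPM refed (-4.37), and the transcripts D7Ertd143e (-4.55) and B930025P03Rik (-4.12) fell in like manner. Rnf125, a ubiquitin ligase, was at 73.4 and 67.0 CPM fasted and at 11.1 and 1.23 CPM refed (-3.50, SE 0.81, adjusted p = 0.0385). In WT, 6 of the 8 passed and fell, where 1.41% of all tested genes did, and Adra2a and Rnf125 did not pass (adjusted p = 0.0505 and 0.0985).

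Whether the KO response differed from the WT response was tested by the interaction of genotype and feeding. No gene passed in edgeR (0.00%), with 1209 genes at an unadjusted p under 0.05 and a smallest adjusted p of 0.116, and DESeq2 called 49 genes more positive and 46 more negative in KO. With KO refed sample 2 left out, 101 genes passed (0.690%), and 7 of them were PERK-ATF4-CHOP targets: Ddit3, Trib3, Psat1, Aldh18a1, Slc3a2, Sesn2 and Fgf21. With KO refed sample 1 left out, so that the library with the length trend stood alone, 4878 passed (33.4%). In either of these fits the single KO refed library is assumed to vary like the other groups. Of the 7 targets, Ddit3, Trib3, Psat1, Aldh18a1 and Slc3a2 rose in KO. Sesn2 and Fgf21 were lower after refeeding in both genotypes, and less so in KO. In the fit of all samples, Sesn2 was at 0.540 of its fasted level in KO and 0.201 in WT, and Fgf21 at 0.422 and 0.130. The change of Sesn2 in KO did not pass.

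The difference was 2.86 for Ddit3 (SE 0.29, adjusted p = 0.116), and 4 of 16 alternative fits called it, with adjusted p from 1.9e-13 to 0.89 and a difference between 2.43 and 3.15 in all 16. For Trib3 it was 3.37 (adjusted p = 0.544, called in 3 of 16), for Fgf21 1.70 (adjusted p = 0.544, called in 3), for Hamp 1.56 (adjusted p = 0.523, called in 3) and for Calr 1.25 (adjusted p = 0.544, called in 3). The difference was negative for Ppara at -1.19 (adjusted p = 0.544, called in 2 of 16). These differences kept their direction in every alternative fit and passed in a minority of them. The alternatives reuse the same samples, and the genes were chosen with earlier results of these data known. The kept direction is thus no independent check.

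Short transcripts need the separate reading of each refed library. Of 77 cytosolic ribosomal protein genes 3 rose, against 5.43% of all tested genes. The median of the 77 was 0.88, but 0.21 in KO refed sample 1 and 1.31 in sample 2, and 0.25 after the length correction. For 70 respiratory chain genes none passed and the median was 0.72, with -0.061 in sample 1, 1.20 in sample 2 and -0.014 after the correction. The 32 proteasome genes, of which 4 rose (5.43% of all tested genes did), gave 0.22 and 1.12 in the 2 samples and 0.28 corrected. The corrected medians were 1.30 for ER chaperones (1.19 uncorrected), 0.78 for PERK-ATF4-CHOP targets (0.77), 0.72 for ribosome biogenesis (0.63) and -1.36 for gluconeogenesis (-1.01). They were 0.37 for ER translocation (0.53), 0.18 for ER-associated degradation (0.43) and 0.16 for UPR sensors and transducers (-0.13), the last turning in sign.

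**Figure D4:**
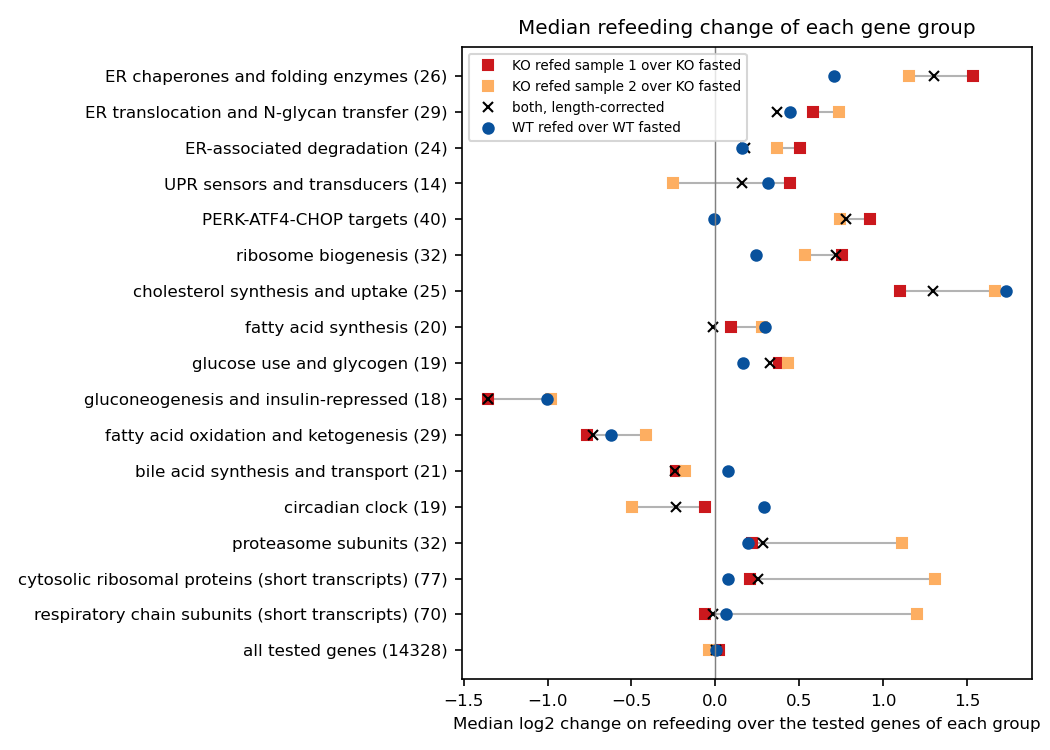
Median log2 change on refeeding (x axis) over the tested genes of each group (number in parentheses), from KO refed sample 1 alone, from sample 2 alone, from both after correction for transcript length, and in WT. The 2 KO libraries lie close for PERK-ATF4-CHOP targets (0.92 and 0.74) and far apart for respiratory chain genes (-0.061 and 1.20).

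Markers of other liver cells were read beside these groups. Summed over 10 hepatocyte markers the level was 103373 and 105069 CPM in the KO fasted samples and 74342.5 and 116553 CPM in the refed ones, and only Cyp2e1 fell (-0.78). None of 11 Kupffer cell markers passed, and their sum was 456 and 343 CPM fasted and 345 and 730.1 CPM refed. None passed among the markers of sinusoidal endothelium (10), stellate cells (10), cholangiocytes (8), lymphocytes (8 tested), neutrophils (3 tested), erythroid cells (2 tested), exocrine pancreas (2 tested) and dividing cells (8). The pancreatic markers Prss1, Cpa1, Pnlip and Amy2a5 had no count in any KO library. Because these are bulk samples, fewer cells of a type and less RNA per cell cannot be told apart, and the part of cell makeup in the changes above was not tested.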

How the data were processed

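Liver RNA was sequenced by the authors on an Illumina NextSeq, 2 samples a group. The deposited values are raw read counts per gene symbol, 1 file a sample. Whether each sample came from 1 mouse is not given in the sources used here. The study's methods name ERANGE for counting, while the submitters' processing notes name cutadapt, STAR, HTSeq, DESeq2 and mm10 without roles, so the counter is uncertain, and the use of strand is not given in the sources used here. Libraries held 40210576 to 49117080 counts.

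Genes kept by filterByExpr (minimum count 10, minimum total 15) were normalized by TMM and fitted with edgeR 4.0.16 (R 4.3.3), 1 coefficient for each of 4 groups, with Benjamini-Hochberg adjustment over 14328 genes. The SE of a log2 change is its size over the square root of F. This design was used because the RPKM and limma test of the study start from other values. DESeq2 1.42.0 and limma-trend 3.58.1 were alternatives. In simulated KO refeeding with 14071 genes, 13% of 100 genes changed 2-fold and 87% of 100 changed 4-fold were recovered. The simulated libraries lacked the length trend of KO refed sample 2, and changes were placed only in genes averaging 1 CPM or more. These rates therefore need not hold for the real comparison. Exon lengths and positions are from GENCODE M21 (22854 of 23337 symbols matched, 1903 by an older symbol), promoters from RefSeq. The length correction removed each library's lowess trend on log2 exon length.

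Named genes were the 5 markers Ddit3, Pck1, Manf, Calr and Ppara, Syvn1, members of the gene lists, and the 8 largest held changes in each direction whose fasted and refed samples did not overlap, averaging 1 CPM or more. Genes outside this rule were named after their values were seen. The members and lists were chosen with earlier results of these data known, and lists were described without set tests. Counting intervals cover counting error only. A few items are not reported here.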

Additional observations from a re-analysis of the deposited data

Results flagged for a closer look

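The 4 genes given here were noted because the KO samples moved one way on refeeding and the WT samples the other, with no overlap within either genotype. Across all tested genes, 33 held KO changes had this pattern. Hist1h1c, a linker histone gene chosen after its values were seen, was at 152 and 153 CPM in KO fasted samples and at 322 and 290.1 CPM refed (1.0021), and in WT at 234 and 220.1 CPM and then 92.3 and 74.0 CPM (-1.45), the only gene called in opposite directions in the 2 genotypes. Its interaction had an adjusted p of 0.116 in edgeR, from 4.67e-16 to 0.89 over 16 alternatives. It belongs to a multigene family among which reads can be split. Trib3 changed by 1.85 in KO and -1.51 in WT (interaction 3.37, adjusted p = 0.544). Jund changed by 1.16 in KO and -0.39 in WT (interaction 1.55, adjusted p = 0.544). It was at 74.7 and 91.4 CPM in KO fasted samples and at 153 and 218 CPM refed. Its WT samples were only just apart, at 57.8 and 83.6 CPM fasted and 56.7 and 51.2 CPM refed. Inhbe changed by -0.84 in KO and 0.39 in WT (interaction -1.24, adjusted p = 0.544). The WT changes of Trib3, Jund and Inhbe did not pass, and the interactions of these 3 genes passed in 2 or 3 of 16 alternatives.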

How the results depend on the processing

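Counts of 8 or fewer lay behind the fasted level of Hapln1 and the refed levels of Unc79 and Adra2a. In KO liver, 778 genes higher and 723 lower became 1534 and 1387 with DESeq2, 1121 and 1126 with the length correction, and 0 and 0 with the 4 KO samples alone (1395 and 1321 at an unadjusted p under 0.05). Leaving out 1 sample gave 3 to 3614 higher and 12 to 3882 lower, with the lowest counts without KO fasted sample 1 and the highest without KO refed sample 1, and 1566 and 1318 without KO refed sample 2. In WT liver, 172 higher and 202 lower became 496 and 590 with DESeq2, 909 and 973 with its own 4 samples, 414 and 473 with the length correction, and from 0 to 1252 higher and 0 to 1256 lower with 1 sample left out. The WT counts were 0 in edgeR without WT refed sample 1 (648 higher and 666 lower at an unadjusted p under 0.05) or sample 2 (651 and 642). The interaction, with 0 genes called, gave 49 more positive and 46 more negative with DESeq2, 2 positive with no filter on low counts, and 0 to 2249 positive and 0 to 2629 negative with 1 sample left out. A sample left alone in its group was assumed to vary like the other groups.

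Nothing in the labels ties samples of the same number, and the correlation of their deviations was 0.044 between KO fasted and KO refed samples and 0.179 between WT fasted and WT refed samples. With the replicate number as a block, KO calls were 649 higher and 694 lower and WT calls 129 and 176. The block together with the length correction gave 1060 and 1091 in KO and 371 and 418 in WT. The 143 KO changes of list members and named genes checked here were chosen because they were called in these same samples. In no called gene did the 2 refed samples lie on opposite sides of the fasted mean. A reversal without 1 refed sample was thus hardly possible, and none of the 143 reversed under any of the 17 settings. Of these, 14 lost their call with the block, 15 with the length correction, 9 with limma-trend, 136 without KO fasted sample 1, 128 without KO fasted sample 2, 3 without KO refed sample 2 and 0 without KO refed sample 1. In addition, 22 lost it with block and length correction, 60 to 72 with 1 WT sample left out and all 143 with the 4 KO samples alone. Why the calls moved was not tested.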
